A study of Homo sapiens with 4 samples.

Results

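The RNA adenosine methyltransferases and their partner subunits were examined in cells in which ZCCHC4, one of these enzymes, had been targeted by CRISPR/Cas9. The genes were ZCCHC4, METTL5, TRMT112, METTL3, METTL14, METTL16, WTAP, VIRMA, RBM15 and PCIF1, chosen by name. A row was found for each of the 10 by its Entrez identifier among 16658 genes, and all 10 were expressed highly enough to be tested. RNA-seq had been performed on WT cells and on ZCCHC4 KO1 cells, which carried a knockout of ZCCHC4, with 2 libraries each, and all 4 were labelled HepG2 and untreated. ZCCHC4 KO1 is a single line among the several knockout lines of the study and was the only one analysed here, so the knockout and any other difference of this line cannot be told apart. The WT cells are the parental cells without the knockout. Nothing in the labels says that the 2 libraries of a group came from separate cultures, so the spread between them may be technical. The p-values measure only this spread, drawn for each gene towards a trend over all genes (prior 3.78 against 2 residual degrees of freedom).

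Methylation of adenosine at its N6 position is written by separate enzymes on separate kinds of RNA. ZCCHC4 and METTL5 each methylate a single adenosine of ribosomal RNA, ZCCHC4 in the RNA of the large subunit and METTL5 in that of the small subunit. METTL3, with METTL14 and further subunits, methylates mRNA, METTL16 acts on a spliceosomal RNA and on the mRNA of an S-adenosylmethionine synthetase, and PCIF1 methylates the adenosine next to the mRNA cap. ZCCHC4, METTL5, METTL3, METTL16 and PCIF1 hold the catalytic site, whereas TRMT112, METTL14, WTAP, VIRMA and RBM15 are partner subunits, so the name methyltransferase covers only some of the 10 genes.

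The libraries were labelled HepG2, a line from a human liver tumor, but the liver genes that had a row were near 0. Of 15 hepatocyte markers, 8 had a row, and all 8 were below an FPKM of 1 in every library. ALB, APOA1, APOB, APOH, TTR, TF and FOXA2 had no row, so their level is not given. AFP, a product of fetal liver and of HepG2 cells, was listed at 0 and 0.05 in WT and at 0 in both ZCCHC4 KO1 libraries. Of 7 epithelial and mesenchymal markers, KRT7, KRT8, KRT18 and VIM were at least at 388.61 in every library, while KRT19, EPCAM and CDH1 were below 1. KRT8 and KRT18 are also keratins of hepatocytes, so their level does not bear on the label. That reason does not cover VIM or KRT7, which was at 2025.95 or more in every library. With the 8 liver genes below 1, the markers measured here do not bear out the HepG2 label. The summed FPKM of the 7 markers was 5779.82 and 6648.56 in WT against 9648.74 and 7482.67 in ZCCHC4 KO1. The markers in this sum differed in direction. The FPKM of VIM, a mesenchymal filament protein, was 536.20 and 553.28 in WT against 388.61 and 413.15 in ZCCHC4 KO1, with groups that did not overlap (log2 difference -0.44, unadjusted p = 0.0178, adjusted p = 0.125, both from limma). KRT8 and KRT18 were above WT in both ZCCHC4 KO1 libraries, at log2 differences of 0.61 and 0.69, and KRT7 was at 0.30 with overlapping groups. None of the 4 tested markers passed. The part of the identity of the cells in the levels of the 10 genes was not tested.

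The guide used to knock out ZCCHC4 is shown first, because its place in the gene decides what an RNA measurement can show of the knockout. It matched the reference genome (hg38) without a mismatch at a single site, on the plus strand in exon 1 of the 13 exons of ZCCHC4 (transcript ENST00000302874.9), at chr4:25312824-25312846 with its PAM. The PAM, the short motif that Cas9 requires beside the target, is in capitals in the first sequence. In the second sequence, the coding part of exon 1 from the start codon at chr4:25312810-25312936, the guide site and the PAM are in capitals.
ZCCHC4 guide with PAM: gaatgggtttgaagccgtggAGG
ZCCHC4 exon 1, coding part: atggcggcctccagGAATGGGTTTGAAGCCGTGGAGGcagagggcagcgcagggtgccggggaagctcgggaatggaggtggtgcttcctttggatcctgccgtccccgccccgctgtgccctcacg

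The guide covers coding bases 15 to 34, counted from the A of the start codon. Cas9 cuts 3 bases before the PAM, here between coding bases 31 and 32, in codon 11 of 513. Of the coding bases, 98.0 percent lie after the cut. Of 5 annotated transcripts of ZCCHC4, 2 start after the cut. The FPKM of ZCCHC4 is a sum over the exons and does not read the sequence at the cut, so it gives the amount of RNA and not whether that RNA can be translated into the full protein. For that the study had other evidence, frameshift mutations found by Sanger sequencing of its knockout cells and an immunoblot of ZCCHC4 in these lines.

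With up to 3 mismatches and an NGG motif beside the target, 6 further sites were found in the reference chromosomes, each with 3 mismatches, and none lay in another of the 10 genes. Of these sites, 1 lay in a coding exon, that of C1S, a protease of the complement system, with its 20 bases at chr12:7066612-7066631. It is shown with its PAM because it is the only near match in a coding sequence, and capitals mark the bases that differ from the guide (A2G, C15T and C16T, counted from the 5′ end of the guide).
Near match in C1S: gGatgggtttgaagTTgtggagg

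The FPKM of C1S was 3.34 and 3.62 in WT against 1.54 and 2.08 in ZCCHC4 KO1, a log2 difference of -0.68 (SE 0.200, adjusted p = 0.116 from limma), which did not pass. A further site lay in an intron of TRAPPC9, whose FPKM was 6.97 and 7.49 in WT against 3.46 and 3.29 in ZCCHC4 KO1, with a log2 difference of -0.91 (SE 0.187, adjusted p = 0.0514 from limma), just outside the threshold. Whether any of these sites was cut was not tested.

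ZCCHC4 RNA was lower in ZCCHC4 KO1 cells but was still measured there. The FPKM (fragments scaled by transcript length and by all mapped fragments) of ZCCHC4 was 7.22 and 5.44 in WT against 1.08 and 2.29 in ZCCHC4 KO1. Both ZCCHC4 KO1 libraries lay below both WT libraries. The mean fell from 6.33 ± 1.26 to 1.69 ± 0.856 (SD, n = 2 each), so that 26.6 percent of the WT mean remained. This share was 17.1 percent without ZCCHC4 KO1 replicate 2 and 36.2 percent without replicate 1. On the log2(FPKM + 1) scale, on which the differences below are also given, the difference was -1.48 (SE 0.287, 95% interval -2.18 to -0.77, adjusted p = 0.0448 from limma, adjusted by the Benjamini-Hochberg method over 10726 tested genes). On it, changes of genes with a low FPKM appear smaller than they are. In bulk RNA, fewer cells that express a gene and less of its RNA per cell cannot be told apart. Of the 10 genes, ZCCHC4 was the 1 gene that passed the threshold of an adjusted p below 0.05, and 5.98 percent of all tested genes passed it, 1.5 percent higher and 4.48 percent lower. At the study's thresholds (adjusted p below 0.001 and a 2-fold change), applied to the limma fit, 0 of the 10 genes passed. Of all tested genes 0.0746 percent passed there, 0.0186 percent higher and 0.0559 percent lower. The study reported far more genes at its thresholds, with a test not named in the sources used here. Whether ZCCHC4 was among them is not given. By a 2-fold change of the mean FPKM without a test, ZCCHC4 was again the 1 gene counted, beside 8.0 percent of all tested genes, 2.07 percent higher and 5.93 percent lower. The call was lost without ZCCHC4 KO1 replicate 1 (difference -1.15, adjusted p = 0.0514 from limma), when the pseudocount was 0.1 and when low values were kept, while the difference stayed below 0 in each of these. An exact permutation test of 2 against 2 libraries cannot give a two-sided p below 0.333, so none was used.

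In the plot of the level of each gene by library, ZCCHC4 is the gene whose libraries are most clearly apart.

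**Figure D1:**
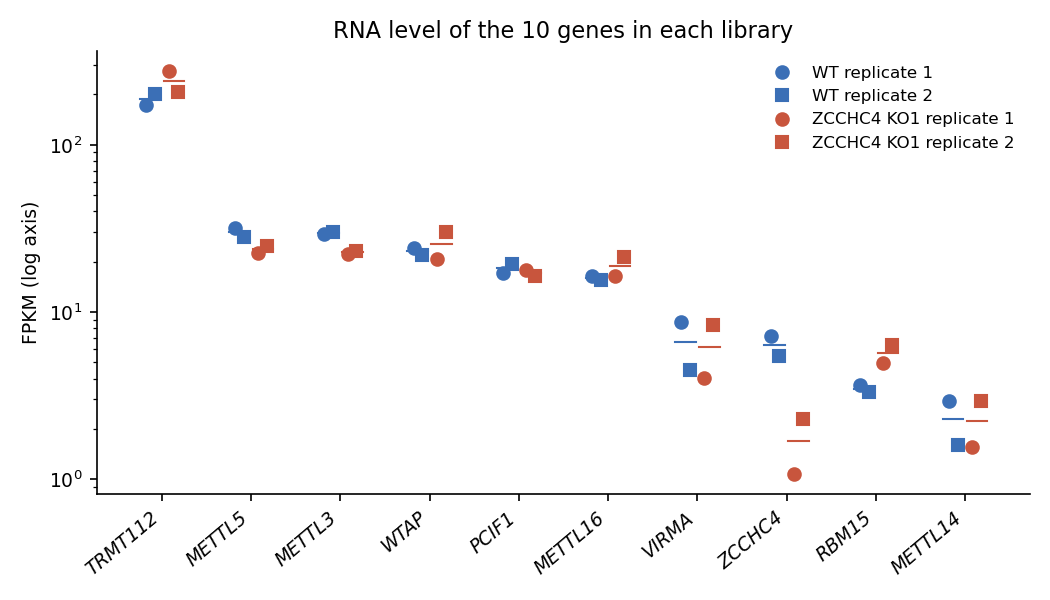
FPKM of the 10 genes in each library on a log axis, ordered by their WT mean, with WT in blue, ZCCHC4 KO1 in red, circles for replicate 1, squares for replicate 2 and short lines for group means. TRMT112 is at 173.48 FPKM or more in every library, and ZCCHC4 lies between 5.44 and 7.22 in WT and between 1.08 and 2.29 in ZCCHC4 KO1.

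METTL5, the methyltransferase of the small ribosomal subunit, and TRMT112, which binds METTL5 and several other methyltransferases and keeps them stable, did not pass the test. The FPKM of METTL5 was 31.93 and 28.04 in WT against 22.68 and 24.92 in ZCCHC4 KO1. The groups did not overlap, and the log2 difference was -0.32 (SE 0.151, 95% interval -0.69 to 0.05, adjusted p = 0.283 from limma). The FPKM of TRMT112 was 173.48 and 200.56 in WT against 276.82 and 206.23 in ZCCHC4 KO1. Its ZCCHC4 KO1 libraries were both above the WT libraries, the lower of them by little, and the log2 difference was 0.36 (SE 0.185, 95% interval -0.10 to 0.81, adjusted p = 0.322 from limma). Without ZCCHC4 KO1 replicate 1 it was 0.14, and without replicate 2 it was 0.57. For each library the FPKM of METTL5 was divided by that of TRMT112, which is possible because FPKM is scaled by transcript length. The ratio was 0.184 and 0.140 in WT against 0.0819 and 0.121 in ZCCHC4 KO1, so the values of the groups did not overlap, and no test was made of it. Part of the exons of both genes is shared with a gene on the opposite strand, 10.2 percent of those of METTL5 with SSB and 35.0 percent of those of TRMT112 with ESRRA. Whether the counting used the strand is not given in the sources used here, so reads of these pairs may not be told apart. The FPKM of ESRRA, a nuclear receptor, was 26.68 and 27.41 in WT against 44.39 and 34.82 in ZCCHC4 KO1. RefSeq also lists 8 pseudogenes named after TRMT112 and 4 named after METTL5. None of these pseudogenes had a row, and whether reads were divided among them was not tested.

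METTL3, the catalytic subunit of the complex that methylates mRNA, was lower in both ZCCHC4 KO1 libraries, and METTL14, the subunit that binds RNA beside it, showed no such order. The FPKM of METTL3 was 29.39 and 30.18 in WT against 22.22 and 23.20 in ZCCHC4 KO1. The replicates of METTL3 were close to each other and the groups did not overlap. The log2 difference of METTL3 was -0.38 (SE 0.138, 95% interval -0.72 to -0.04), with an unadjusted p of 0.0357 and an adjusted p of 0.182 from limma, so it did not pass. Of the exon bases of METTL3, 17.4 percent are shared with TOX4 on the opposite strand, whose FPKM was 17.76 and 19.63 in WT against 22.97 and 21.72 in ZCCHC4 KO1. The FPKM of METTL14 was 2.95 and 1.60 in WT against 1.55 and 2.93 in ZCCHC4 KO1, with a log2 difference of -0.02 (95% interval -0.79 to 0.75, adjusted p = 0.983 from limma). In each group 1 library of METTL14 was far above the other, so the spread within a group was larger than the difference between the groups. The ratio of METTL14 to METTL3 FPKM was 0.1 and 0.053 in WT against 0.0698 and 0.126 in ZCCHC4 KO1, and the groups overlapped.

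Of the other subunits of that complex, RBM15 was higher in both ZCCHC4 KO1 libraries, while the groups overlapped for WTAP and VIRMA. RBM15 binds RNA and brings the complex to its targets. Its FPKM was 3.66 and 3.30 in WT against 4.95 and 6.35 in ZCCHC4 KO1, and the groups did not overlap. The log2 difference of RBM15 was 0.56 (SE 0.209, 95% interval 0.05 to 1.08), with an unadjusted p of 0.0369 and an adjusted p of 0.186 from limma, so it did not pass. It passed in 1 of the alternatives, when the trend on GC content was removed from each library (difference 0.59, adjusted p = 0.0448 from limma), where 26.2 percent of the tested genes passed. WTAP, which anchors METTL3 and METTL14 in nuclear speckles, had an FPKM of 24.13 and 21.89 in WT against 20.87 and 30.25 in ZCCHC4 KO1. The lower and the higher ZCCHC4 KO1 library enclosed both WT libraries, and the log2 difference of WTAP was 0.12 (95% interval -0.39 to 0.64, adjusted p = 0.784 from limma). The FPKM of VIRMA, the large scaffold of the complex, was 8.73 and 4.49 in WT against 4.05 and 8.34 in ZCCHC4 KO1. The replicates of VIRMA differed by about as much in either group, in opposite order, and its log2 difference of -0.09 had the widest interval of the 10 genes (-1.08 to 0.90, adjusted p = 0.929 from limma).

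METTL16 and PCIF1 act without the METTL3 complex, and neither passed. The FPKM of METTL16 was 16.49 and 15.51 in WT against 16.40 and 21.43 in ZCCHC4 KO1. Only ZCCHC4 KO1 replicate 2 stood above the other libraries, and the log2 difference was 0.22 (95% interval -0.24 to 0.68, adjusted p = 0.559 from limma). Without that library it was 0.03, and without ZCCHC4 KO1 replicate 1 it was 0.40. The FPKM of PCIF1 was 17.16 and 19.39 in WT against 17.74 and 16.39 in ZCCHC4 KO1. The groups overlapped, and the log2 difference of PCIF1 was -0.09 (95% interval -0.49 to 0.30, adjusted p = 0.791 from limma).

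Across the 10 genes, 4 were above and 6 below their WT level on the log2 scale, with a median difference of -0.05, and -0.02 for the 9 genes other than ZCCHC4. The median over all tested genes was -0.03. The groups did not overlap for 5 of the 10 genes, which were ZCCHC4, METTL5 and METTL3 below WT and TRMT112 and RBM15 above it. This count is close to the 51.6 percent of all tested genes whose groups did not overlap. An unadjusted p under 0.05 was found for 3 of the 10 genes and for 22.9 percent of all tested genes. The intervals leave room for changes in the genes that did not pass. On the scale of FPKM + 1, the interval of METTL3 reached down to a fold of 0.608, that of RBM15 up to 2.11 and that of VIRMA from 0.474 to 1.86.

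**Figure D2:**
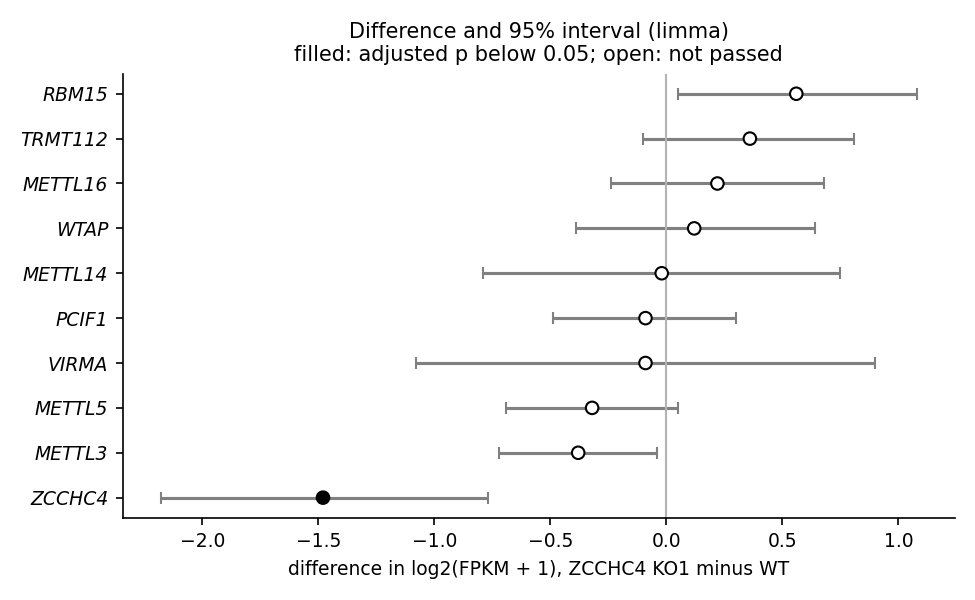
Difference in log2(FPKM + 1) between ZCCHC4 KO1 and WT cells for each of the 10 genes, with 95% intervals from limma (2 libraries per group), filled where the adjusted p is below 0.05 and open where it is not. ZCCHC4 at -1.48 is the only filled point, and the intervals of METTL3 and RBM15 stop just short of 0.

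The order of the levels was led by TRMT112 in all 4 libraries. In WT cells, TRMT112 at 187.0 ± 19.2 FPKM was followed by METTL5 at 29.99 ± 2.75, METTL3 at 29.79 ± 0.559, WTAP at 23.01 ± 1.58, PCIF1 at 18.3 ± 1.58, METTL16 at 16 ± 0.693, VIRMA at 6.61 ± 2.998, ZCCHC4 at 6.33 ± 1.26, RBM15 at 3.48 ± 0.255 and METTL14 at 2.28 ± 0.955 (SD, n = 2 each). The neighbours METTL5 and METTL3, and VIRMA and ZCCHC4, were not separated, since their libraries overlapped. TRMT112 held from 55.0 to 71.3 percent of the summed FPKM of the 10 genes. ZCCHC4 moved from the eighth to the last place, but in ZCCHC4 KO1 cells its libraries overlapped those of METTL14, the gene before it. Among all tested genes the mean level of ZCCHC4 was above 35.3 percent in WT and above 10.2 percent in ZCCHC4 KO1, whereas TRMT112 was above 95.9 and 96.9 percent.

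Within a group the difference between the replicates varied with transcript GC content, with exceptions among the 10 genes. In WT, replicate 2 was below replicate 1 for 7 of the 10 genes, and in ZCCHC4 KO1 it was above replicate 1 for 8. The transcripts of METTL14 and VIRMA, with the lowest GC contents of the 10 at 38.3 and 40.4 percent, differed by -0.60 and -0.83 on the log2 scale in WT and by 0.62 and 0.89 in ZCCHC4 KO1. For ZCCHC4, with a GC content of 42.4 percent, the differences were -0.35 and 0.66. TRMT112 (54.3 percent) and PCIF1 (60.0 percent) went the other way, with 0.21 and 0.17 in WT against -0.42 and -0.11 in ZCCHC4 KO1. RBM15, with nearly the GC content of TRMT112 (54.2 percent), did not go that way, at -0.12 in WT and 0.30 in ZCCHC4 KO1. METTL3 (49.9 percent) was at 0.04 and 0.06. As a description over the 10 genes, which share the libraries, GC content and the difference of the replicates (2 minus 1) had a Spearman correlation of 0.927 in WT and -0.891 in ZCCHC4 KO1. Over 10559 tested genes it was 0.725 and -0.784. The part of GC content in the differences between the groups was not tested beyond the alternative in which its trend was removed.

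Genes that work with the 10 or modify RNA in related ways were read from further lists. The median log2 difference was 0.29 for 3 other subunits of the METTL3 complex, none of which passed. The smallest p among them was that of ZC3H13, which keeps the complex in the nucleus, with an FPKM of 2.85 and 1.55 in WT against 2.41 and 3.99 in ZCCHC4 KO1 and overlapping groups (adjusted p = 0.504 from limma). Of 6 other methyltransferases or related enzymes that bind TRMT112, 5 had a row and were tested, and none passed, with a median of 0.22. BUD23, which modifies a guanosine of the small ribosomal subunit, had the smallest p, with an FPKM of 109.64 and 128.25 in WT against 176.94 and 139.87 in ZCCHC4 KO1 (difference 0.40, SE 0.169, adjusted p = 0.229 from limma). For BUD23, as for TRMT112, ZCCHC4 KO1 replicate 1 was the highest of the 4 libraries. The same held for FBL, NSUN5 and TRMT61A of the other lists, so it is not particular to genes that work with TRMT112.

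Of 15 other enzymes that modify ribosomal RNA, 1 rose and none fell by the test, beside 1.5 and 4.48 percent of all tested genes. The median difference of the 15 was 0.30. The gene that rose was NAT10, which acetylates cytidines of ribosomal RNA and is also required for processing it. Its FPKM was 40.61 and 41.68 in WT against 66.63 and 65.98 in ZCCHC4 KO1, so the replicates were close and the groups far apart. The log2 difference of NAT10 was 0.68 (SE 0.125, 95% interval 0.37 to 0.98, adjusted p = 0.0393 from limma). It stayed between 0.66 and 0.75 in 12 alternatives, in 6 of which it passed, and the adjusted p ranged from 0.00324 to 0.353. With 1 library left out, the call was lost for WT replicate 1 (adjusted p = 0.353), WT replicate 2 (adjusted p = 0.271) and ZCCHC4 KO1 replicate 1 (adjusted p = 0.0527, all from limma). The groups did not overlap for 12 of the 15 enzymes, 11 of them higher and 1 lower in ZCCHC4 KO1, beside 23.1 percent higher and 28.5 percent lower among all tested genes. FBL, the methyltransferase that 2′-O-methylates ribosomal RNA with guide RNAs, named here after its values were seen as the most abundant of the 15, had an FPKM of 284.87 and 324.55 in WT against 437.33 and 363.05 in ZCCHC4 KO1 and did not pass (difference 0.39, adjusted p = 0.224 from limma).

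None of 5 other adenosine methyltransferases of RNA passed, and their median difference was 0.18. TRMT61A, the catalytic subunit of the enzyme for N1-methyladenosine in tRNA, had the smallest p, with an FPKM of 15.00 and 17.31 in WT against 34.48 and 26.25 in ZCCHC4 KO1 (difference 0.86, SE 0.189, adjusted p = 0.0596 from limma). Both ZCCHC4 KO1 libraries of TRMT61A were above both WT libraries. It passed in 5 of its 12 alternatives (minimum FPKM of 5, median-ratio scaling, quantile normalization, GC trend removed, ZCCHC4 KO1 replicate 2 left out), with an adjusted p from 0.00421 to 0.302 over the 12 from limma. Of 16 genes for other proteins with the same kind of zinc finger as ZCCHC4, 14 were tested and none passed, with a median of 0.04. SF1, a splicing factor that recognises the branch point, had the smallest p, with an FPKM of 165.65 and 178.84 in WT against 248.92 and 224.90 in ZCCHC4 KO1 (difference 0.46, SE 0.133, adjusted p = 0.112 from limma).

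The fall of ZCCHC4 was set beside the values of the genes around it. They were the nearest 10 tested genes on each side on chromosome 4, over a span of 20.56 Mb. Of these 20 genes, 5 were above and 15 below 0, with a median log2 difference of -0.10, and none passed. Their values ran from -0.72 for ADGRA3 to 0.24 for STIM2. The gene next to ZCCHC4 on the side of its start was PI4K2B, a lipid kinase, with an FPKM of 6.11 and 3.48 in WT against 2.0 and 3.12 in ZCCHC4 KO1 and a log2 difference of -0.68 (SE 0.301, adjusted p = 0.252 from limma). The next gene on the other side was ANAPC4, a subunit of the anaphase-promoting complex, with an FPKM of 7.63 and 5.10 in WT against 4.21 and 8.36 in ZCCHC4 KO1 and a difference of -0.06 (SE 0.342, adjusted p = 0.951 from limma). The interval of PI4K2B, from -1.43 to 0.06, overlapped that of ZCCHC4, and the difference between the 2 genes was not tested.

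**Figure D3:**
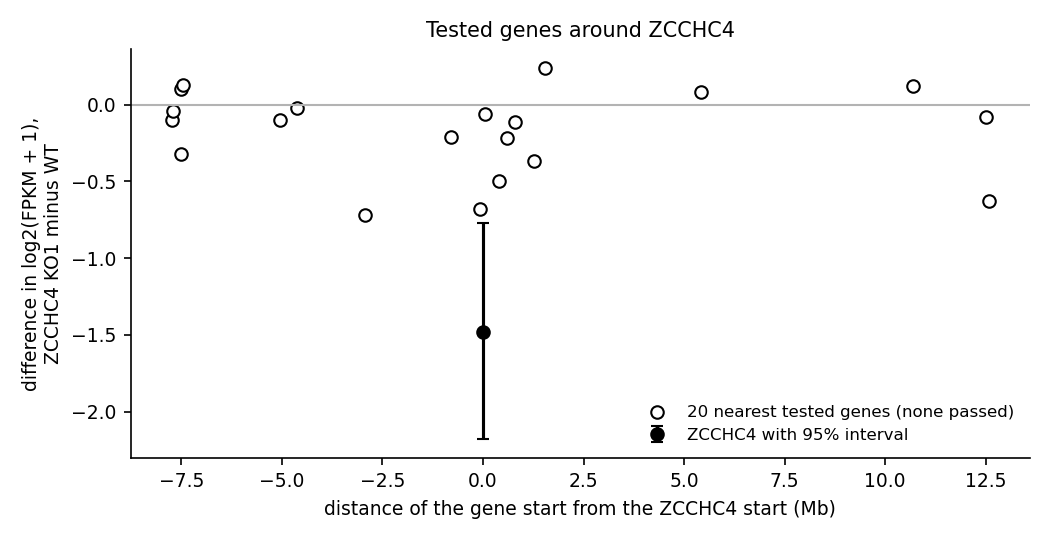
Difference in log2(FPKM + 1) between ZCCHC4 KO1 and WT cells for ZCCHC4 (filled, with its 95% interval) and 20 tested genes around it (open). These are the nearest 10 on each side on chromosome 4. The horizontal axis is the distance of each gene start from the start of ZCCHC4 in Mb. The open points, drawn without their intervals, lie between -0.72 and 0.24, above ZCCHC4 at -1.48.

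The genes around the other members, again 10 on each side, gave medians from -0.30 to 0.20. Their spans ran from 0.8 Mb for TRMT112 to 13.08 Mb for METTL14. METTL5 on chromosome 2, at -0.32, lay among 20 genes with a median of -0.30, of which 14 were below 0, and METTL16 on chromosome 17, at 0.22, lay among 20 genes with a median of 0.20, of which 14 were above 0. For METTL3 on chromosome 14, at -0.38, the median of the 20 genes around it was 0.05. For RBM15 on chromosome 1, at 0.56, this median was -0.06, and for TRMT112 on chromosome 11, at 0.36, it was 0.09.

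The profile of ZCCHC4 over the 4 libraries, taken as log2(FPKM + 1) relative to the WT mean, was most like those of SDCBP, TPD52, PTP4A1, GGH and FAM107B among 10725 other tested genes. Likeness was measured as the Euclidean distance over the 4 libraries, which was 0.0434, 0.0662, 0.0711, 0.0979 and 0.128 for these genes, against a median of 2.10. SDCBP, TPD52 and GGH lie on chromosome 8, PTP4A1 on chromosome 6 and FAM107B on chromosome 10. The GC content of the 5 transcripts was between 36.0 and 42.2 percent, beside 42.4 percent for ZCCHC4 and a median of 48.7 percent over the tested genes. All 5 genes were lower in both ZCCHC4 KO1 libraries, which their likeness to ZCCHC4 implies.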

How the data were processed

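Total RNA of 4 libraries (WT and ZCCHC4 KO1, 2 each) was sequenced. FPKM values, estimated with RSEM after Bowtie2 alignment to GRCh38, were deposited by the authors. Versions, annotation, read filters and strand setting are not given in the sources used here. The supplement names BGISEQ-500 and the labels Illumina HiSeq. FPKM gives no read totals, so depth and counting error are unknown. The summed FPKM ranged from 512417.0 to 565198.6. All 4 columns carry sample titles.

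Genes with an FPKM of at least 1 in at least 2 libraries (10726 of 16658) entered limma 3.58.1 (R 4.3.3; lmFit, eBayes with a trend, Benjamini-Hochberg adjustment) on the log2(FPKM + 1) scale and were called at an adjusted p below 0.05. No count model was fitted to FPKM. Symbols and positions came from RefSeq (GRCh38.p14, 16384 genes matched), and GC content from GENCODE v44 canonical transcripts (98.4 percent of tested genes). The guide was taken from the study's list of oligonucleotides and searched in hg38.

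The 10 genes, the lists and the tests were chosen with earlier results of these data known. All 10 genes are named, and of each list the called genes or the gene with the smallest p. Alternatives were a pseudocount of 0.1, no filter, a minimum FPKM of 5, median-ratio scaling, quantile normalization, no variance trend, the replicate number as a block, removal of the GC trend (natural spline, 4 degrees of freedom), the study's thresholds, an untested 2-fold change, and the omission of each library. A crossed pairing was added after the values were seen.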

Additional observations from a re-analysis of the deposited data

How the results depend on the processing

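Depth is unknown, and 2 libraries per group limit the precision. Of 12 alternatives for ZCCHC4, 9 kept its call, and its difference was below 0 in all 12. Its log2 difference was -1.923 with a pseudocount of 0.1 (adjusted p = 0.0551 from limma) and -1.476 with no filter (adjusted p = 0.115 from limma). Leaving out 1 library gave from -1.81 to -1.145, the latter without ZCCHC4 KO1 replicate 1 (adjusted p = 0.0514 from limma), where the lone library of a group was assumed to vary like the others. Where 1 library was left out, 1 residual degree of freedom remained. Without WT replicate 1, without WT replicate 2 and with the replicate number as a block, limma took the variance of each gene wholly from the trend over all genes. The calls of these alternatives therefore do not measure the spread of ZCCHC4 itself.

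Of the 10 genes, 1 was higher with the GC trend removed (RBM15), and 0 were lower with a pseudocount of 0.1, with no filter or at the study's thresholds. Leaving out 1 library gave from 0 to 1 lower. For 3 uncalled genes the direction turned. METTL14 was at 0.033 with median-ratio scaling, 0.076 after quantile normalization and 0.103 once the GC trend was removed, and between -0.33 and 0.294 without 1 library (0.284 without WT replicate 1). VIRMA was at 0.003 after quantile normalization and 0.080 once the GC trend was removed, and between -0.53 and 0.354 without 1 library (0.323 without WT replicate 1). WTAP was at -0.133 without ZCCHC4 KO1 replicate 2 and up to 0.38 without another. The cause was not tested. Without 1 library and with no turn in direction, TRMT112 ran from 0.144 to 0.567, METTL16 from 0.034 to 0.40 and PCIF1 from -0.176 to -0.009. The ratios moved with the GC trend removed, to 0.193 in WT and 0.259 in ZCCHC4 KO1 for METTL14 to METTL3 and to 0.213 and 0.146 for METTL5 to TRMT112, since this alternative also removes the dependence of levels on GC content.

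Over all tested genes, 161 were higher and 480 lower. There were 82 and 262 with no filter, 346 higher with median-ratio scaling (664 lower), 466 and 721 after quantile normalization, 1322 and 1442 once the GC trend was removed, and 2 and 6 at the study's thresholds. Without 1 library the counts ran from 97 to 558 higher and from 273 to 1037 lower, with 97 and 273 without WT replicate 1, 97 higher without WT replicate 2, and 558 and 1037 without ZCCHC4 KO1 replicate 2. In the lists, 1 subunit of the METTL3 complex was higher with the GC trend removed and from 0 to 1 enzyme that binds TRMT112 without 1 library. Of the enzymes that modify ribosomal RNA, 0 were higher with no filter, 0 without a variance trend, 0 at the study's thresholds and 0 at a 2-fold change without a test, 2 with median-ratio scaling, 2 after quantile normalization and 7 once the GC trend was removed, and from 0 to 4 without 1 library. Of the other adenosine methyltransferases, 1 was higher at a minimum FPKM of 5, 1 with median-ratio scaling, 1 after quantile normalization, 2 once the GC trend was removed and from 0 to 1 without 1 library. Of the zinc finger proteins, 1 was higher after quantile normalization and 2 once the GC trend was removed.

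The labels do not say whether libraries of the same replicate number were prepared together. Their deviations from the group means had a Pearson correlation of -0.787 across genes. With the replicate number as a block, 107 genes were higher and 355 lower, and 0 of the enzymes that modify ribosomal RNA were higher. ZCCHC4 kept its call in this fit (difference -1.48, adjusted p = 0.00886 from limma). The blocked fit took the variance of each gene wholly from the trend over all genes, so this p-value does not measure the spread of ZCCHC4 itself. A crossed pairing of the libraries, a choice made after seeing the data, gave 2309 higher and 2986 lower genes of 10726 tested. Among the 10 genes it gave 2 and 3, close to the share among all tested genes. The crossed fit also took the variance of each gene wholly from the trend over all genes.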

Other observations

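With the trend on GC content removed from each library, the standard error became smaller for all 10 genes, with a median of 0.110 in place of 0.198. Over all tested genes the median fell from 0.191 to 0.118 in the same way. The log2 difference of ZCCHC4 was then -1.29 (SE 0.124, 95% interval -1.59 to -0.99, adjusted p = 0.00163 from limma). The intervals of METTL3 (-0.50 to -0.07), METTL16 (0.09 to 0.61), WTAP (0.06 to 0.55) and TRMT112 (0.03 to 0.72) did not include 0. Their adjusted p was 0.0641, 0.0577, 0.0720 and 0.0993 from limma, and they did not pass. The interval of RBM15 (0.19 to 0.98), which passed, did not include 0 either. Such intervals were not counted over all tested genes, of which 26.2 percent passed in this alternative, so they are not particular to the 10 genes. METTL5 was at -0.15 (95% interval -0.40 to 0.10) and PCIF1 at -0.14 (-0.38 to 0.10). For METTL14 the interval shortened to -0.17 to 0.37 around a difference of 0.10.

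In the same alternative, NAT10 kept its call and further genes of the lists passed, all of them higher in ZCCHC4 KO1 cells. Apart from NAT10, ZC3H13, TRMT61A and SF1, which the naming rule had given above, they are named after their values were seen. Among the enzymes that modify ribosomal RNA, NSUN5, NSUN4, DKC1, NAT10, FTSJ3, MRM2 and MRM3 passed. Their log2 differences were 0.74, 0.47, 0.47, 0.74, 0.51, 0.40 and 0.58. ZC3H13 of the METTL3 complex was at 0.58, TRMT61A and TRMT6, the 2 subunits of one tRNA methyltransferase, were at 0.79 and 0.42, and ZCCHC7 and SF1 were at 0.42 and 0.45. In this alternative 12.5 percent of the tested genes were higher and 13.7 percent lower.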
